A study of Homo sapiens with 6 samples.

Results

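The EGF receptor family and its ligands are described here in the human pancreatic cancer cell line MIA PaCa-2, from total RNA of cells labelled as a knockout of LINC00901, a long non-coding RNA gene (KO), and of vector control cells. The group consists of 10 genes chosen by symbol: the receptors EGFR, ERBB2 and ERBB3, the ligands AREG, EREG, HBEGF, TGFA and NRG1, the inhibitor ERRFI1 and the sheddase ADAM17. They were matched to the 18268 rows of the deposited table, where 9 had a row of their own and ERBB3 stood in a row joined with PA2G4 and AC034102. Each genotype had 3 libraries, called vector control 1 to 3 and KO 1 to 3, and both kinds of cells were grown in DMEM with fetal bovine and horse serum. Whether the knockout cells were 1 clone or a pool, and whether the libraries came from separate cultures, is not given in the sources used here, so each p-value reflects only how these samples spread, which may be technical.

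Receptors of this family are tyrosine kinases that pair up when a ligand binds outside the cell, and the pair signals through RAS and ERK and through PI3 kinase. ERBB2 has no known ligand of its own, and ERBB3 has little kinase activity and signals through its partners. AREG, EREG, HBEGF, TGFA and BTC are made as membrane-bound precursors that metalloproteases such as ADAM17 and ADAM10 cut free. The family has long been studied in pancreatic cancer.

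Values are FPKM, fragments scaled by the authors to transcript length and library size. Levels are thus only roughly comparable between genes and between libraries. The comparison is weaker where the RNA make-up of the libraries differs or a row joins several genes. Log2 fold changes are KO minus vector control on the log2(FPKM + 1) scale, where the change of a low gene is understated. They were tested with limma over the 9624 rows with at least 1 FPKM in at least 3 libraries, and a Benjamini-Hochberg adjusted p below 0.05 was taken as a call. The FPKM sums were 123107 to 134389 per library. The depth is unknown because FPKM was deposited without counts, and the number of libraries limits the precision. LINC00901 had 0 rows, so the knockout itself was not checked and every direction rests on the labels. The libraries also divided across the groups: histone genes of the HIST clusters took 5.05% to 6.10% of the FPKM in vector control 1, KO 2 and KO 3 and 2.75% to 3.17% in the others. Differences within each side of this division are therefore given for the genes that the results turn on. Of the markers of epithelial cells, the labelled cell type, 4 of 8 with their own row reached 1 FPKM, led by KRT18 at 28.78 to 79.42. EPCAM reached at most 0.14, CDH1 0.02 and KRT7 0.11. The summed epithelial markers were at 119.6 to 170.8 FPKM in the vector controls and 83.7 to 101.1 in the KO libraries. Leukocyte markers summed to 0.68 to 0.96 and 2.51 to 3.44, with PTPRC, CD3E and MS4A1 among those at 0 in all libraries. Fibroblast markers summed to 68.9 to 98.9 and 68.2 to 96.8, and endothelial markers to 0.14 to 0.43 and 0 to 0.16. The fibroblast sum came mostly from COL1A2 and COL3A1. DCN and FAP were at 0 in all libraries, and LUM reached at most 0.17, PDGFRB 0.07 and COL1A1 3.95. The marker sums mix directions. COL1A2 stood at 24.72 to 35.84 in the vector controls and 50.63 to 56.18 in the KO libraries. COL3A1 stood at 43.10 to 62.02 and 16.46 to 41.24. CLDN4 stood at 11.29, 42.72 and 42.32 in vector control 1 to 3 and at 0.54, 23.03 and 21.60 in KO 1 to 3. KRT18 stood at 58.00 in KO 1, against 28.78 and 35.53 in KO 2 and KO 3. KRT80 was higher in the KO libraries, at 15.91 to 17.80 against 10.12 to 11.24. LYZ and CD4 were also higher there, while CD14 was at 0. The part of these marker differences in the results was not tested. In bulk RNA, fewer expressing cells and less RNA per cell cannot be told apart.

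HBEGF, EREG and TGFA were lower in every KO library than in every vector control, AREG had its highest values in KO 2 and KO 3, and EGFR was high in KO 1 alone. None of the tested genes among these passed, and TGFA lay below the filter. Of the 10 genes, 8 were tested and limma called 0, where 1.35% of all genes tested were called (0.509% higher and 0.842% lower in the KO libraries). HBEGF alone of the 8 had an adjusted p below 0.1, as had 2.85% of all genes. At an unadjusted p below 0.05 there were 3 of the 8 (AREG higher, EREG and HBEGF lower), against 17.5% of all genes. The groups did not overlap in 2 of the 8, or 25%, near the 23.8% of all genes. Both were lower in the KO libraries, as were 8.35% of all genes, and 15.4% of all genes were higher without overlap. NRG1 also lay below the filter. The median log2 fold change of the 8 was 0.02, and that of all genes tested 0.08.

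**Figure D1:**
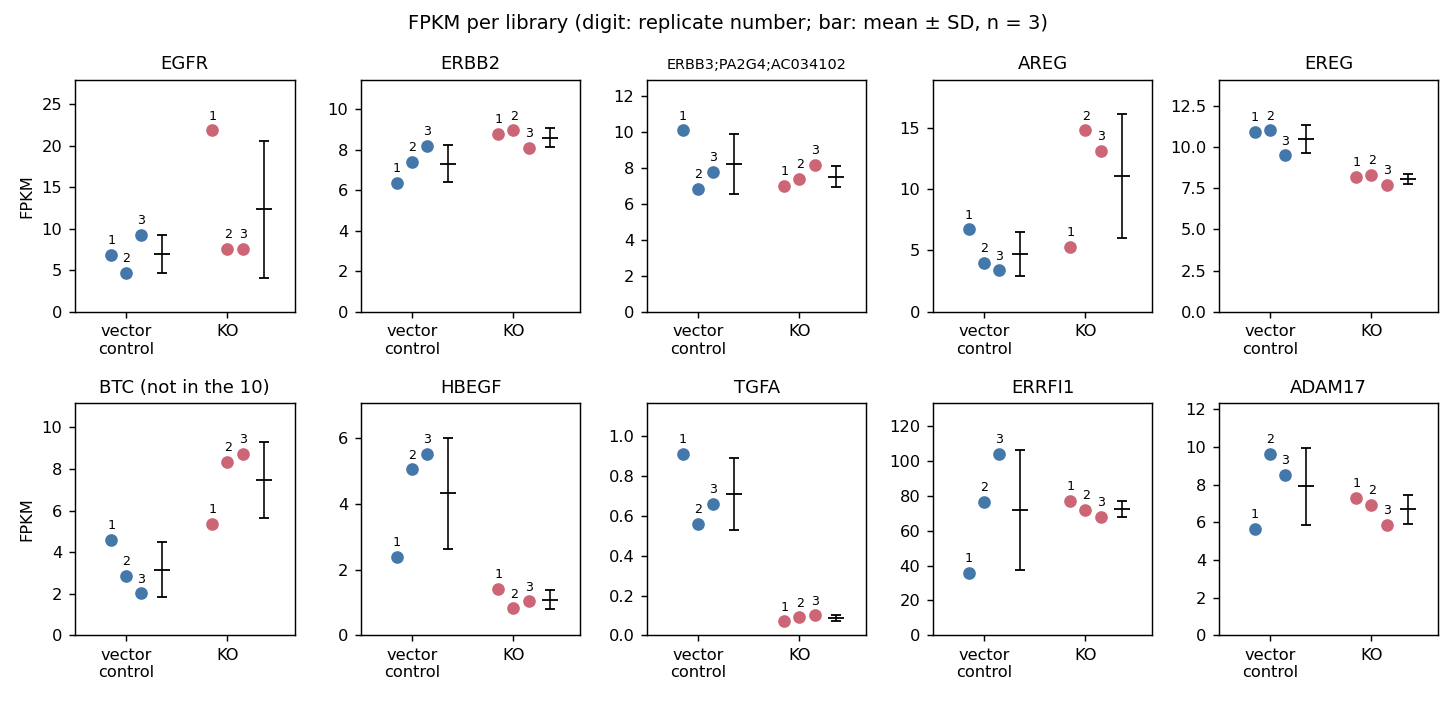
FPKM on the vertical axis (linear, from 0, its own scale in each panel) in the 3 vector control and 3 KO libraries, each point 1 library with its replicate number and each bar the mean ± SD. BTC is added as a related ligand. HBEGF, TGFA and EREG do not overlap between the groups, EGFR is raised in KO 1 alone at 21.84, and ERRFI1 is lowest in vector control 1 at 35.63.

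Among the receptors, EGFR stood at 6.88, 4.64 and 9.24 FPKM in vector control 1, 2 and 3. It stood at 21.84, 7.58 and 7.58 in KO 1, 2 and 3. KO 1 was above every other library, and KO 2 and KO 3 lay within the range of the vector controls. EGFR had a log2 fold change of 0.63 (SE 0.42, 95% interval -0.35 to 1.61, limma adjusted p = 0.478). Without KO 1 it was 0.16 (adjusted p = 0.776). KO 1 stood 1.59 above the mean of vector control 2 and 3 on the log2 scale, whereas the mean of KO 2 and 3 stood 0.12 above vector control 1. EGFR also has an antisense RNA gene, EGFR-AS1, and strand use was not stated, so reads of the pair cannot be told apart.

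ERBB2, the preferred partner of the other receptors, varied little. Its values were 6.36, 7.40 and 8.19 FPKM in the vector controls and 8.77, 8.96 and 8.08 in the KO libraries, and the groups overlapped through vector control 3 and KO 3. ERBB2 had a log2 fold change of 0.21 (95% interval -0.14 to 0.57, limma adjusted p = 0.511).

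ERBB3 was measured only together with its neighbour PA2G4, which encodes a protein known to bind ERBB3. The joined row ERBB3;PA2G4;AC034102 stood at 10.08, 6.84 and 7.76 FPKM across the vector controls, against 7.01, 7.38 and 8.17 in the KO libraries. The groups overlapped, and how much of the value belonged to ERBB3 cannot be told apart from PA2G4. The log2 fold change was -0.10 (95% interval -0.52 to 0.31, limma adjusted p = 0.804), and without vector control 1 it was 0.04. ERBB4, the other receptor of the family, was listed at 0 in all 6 libraries.

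HBEGF, which encodes heparin-binding EGF-like growth factor, had the lowest fold change of the tested members and the lowest p. It stood at 2.39, 5.04 and 5.50 FPKM across the vector controls, against 1.41, 0.82 and 1.03 in the KO libraries. The groups did not overlap, although vector control 1 was nearer to KO 1 than to the other vector controls. The means were 4.31 ± 1.68 and 1.09 ± 0.299 FPKM (SD, n = 3 libraries per group), 3.97-fold higher in the vector controls. The log2 fold change was -1.30 (SE 0.27, 95% interval -1.94 to -0.66), the 98th lowest of the 9624. With a limma adjusted p of 0.0799, HBEGF missed the threshold. It was called with a term for the histone division of the libraries (adjusted p = 0.0379), where 240 of the 9624 genes were called. Without vector control 1 it was also called (-1.60, adjusted p = 0.008), where 1329 genes were, against 130 with the main settings. Its adjusted p ran from 0.000546 to 0.307 over the alternatives run. KO 1 lay 1.38 below vector control 2 and 3 on the log2 scale (-1.38), and KO 2 and 3 lay 0.82 below vector control 1 (-0.82).

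TGFA, which encodes transforming growth factor alpha, was a low-abundance transcript whose groups were well apart. It stood at 0.91, 0.56 and 0.66 FPKM across the vector controls, against 0.07, 0.09 and 0.10 in the KO libraries. Every KO value was below every vector control value, and the mean was 8.19-fold higher in the vector controls (0.71 ± 0.180 against 0.0867 ± 0.0153, SD, n = 3 libraries per group). No library reached 1 FPKM, so TGFA was not tested at the filter of 1 FPKM. Without a filter it was called (log2 fold change -0.65, limma adjusted p = 0.0262), in a fit that called 241 of 14413 rows. A filter at 0.5 FPKM was chosen after its values were seen, and TGFA met it only through the vector controls. The call with that filter (limma adjusted p = 0.0407) is therefore not support for the difference. Within the histone division the difference of TGFA was -0.59 and -0.80. Values are given to 2 decimals, which is a coarse step at the level of the KO libraries.

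EREG and AREG encode epiregulin and amphiregulin, and in RefSeq order they are next to each other among the rows of the table on chromosome 4, with BTC, which encodes betacellulin, next. EREG was lower in the KO libraries and AREG and BTC had higher means, so the stretches before the starts of EREG and AREG are shown, with that of HBEGF. Each is the 250 bases before the transcription start given by RefSeq on GRCh38.p14, read 5′ to 3′ along the gene. Capitals mark matches on either strand to the GC box (GGGCGG), the TATA box (TATAAA), the cAMP response element (TGACGTCA) and the AP-1 element (TGANTCA). In HBEGF, 2 of the GC boxes share a base.
AREG, chr4:74444886-74445135, plus strand: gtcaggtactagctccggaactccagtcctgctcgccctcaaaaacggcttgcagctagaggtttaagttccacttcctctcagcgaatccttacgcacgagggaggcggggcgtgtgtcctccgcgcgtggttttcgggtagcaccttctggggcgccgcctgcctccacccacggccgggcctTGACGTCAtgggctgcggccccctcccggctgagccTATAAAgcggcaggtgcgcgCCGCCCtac
EREG, chr4:74364895-74365144, plus strand: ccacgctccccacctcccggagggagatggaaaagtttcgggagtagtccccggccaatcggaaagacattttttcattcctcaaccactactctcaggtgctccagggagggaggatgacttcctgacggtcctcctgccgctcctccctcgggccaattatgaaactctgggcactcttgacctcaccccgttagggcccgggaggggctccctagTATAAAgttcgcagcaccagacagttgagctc
HBEGF, chr5:140346604-140346853, minus strand: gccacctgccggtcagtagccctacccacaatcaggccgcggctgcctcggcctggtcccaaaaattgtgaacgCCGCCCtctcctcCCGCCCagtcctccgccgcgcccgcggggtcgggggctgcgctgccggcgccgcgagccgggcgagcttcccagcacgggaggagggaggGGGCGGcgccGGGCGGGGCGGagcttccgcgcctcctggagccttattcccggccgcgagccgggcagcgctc
AREG held 1 cAMP response element, from 65 to 58 bases before the start, which 1.65% of the 35116 windows of this length in the table hold. AREG and EREG each held 1 TATA box, at 29 to 24 and 32 to 27 bases before the start (10.7% of all windows hold one). HBEGF held 5 GC boxes and none of the other motifs, and 42.6% of all windows hold at least 1 GC box. AREG held 1 GC box and EREG 0. No AP-1 element matched in these 3 windows (6.57% of all windows hold one), nor did the kappaB consensus, which was also searched on both strands (9.96%). The window of BTC, not printed, held 2 kappaB matches and none of the other motifs. AREG and BTC, both with higher means in the KO libraries, thus shared no motif searched here. Windows were found for 8 of the 10 genes, all but ERBB3 and NRG1. These matches describe the letters of the reference and were not measured in the cells.

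AREG stood at 6.72, 3.99 and 3.37 FPKM across the vector controls, against 5.30, 14.79 and 13.11 in the KO libraries. KO 2 and KO 3 were above all vector controls, while KO 1 lay below vector control 1, so the groups overlapped. The log2 fold change was 1.02 (SE 0.39, 95% interval 0.11 to 1.93), the 100th highest of the 9624, with a limma adjusted p of 0.242. On each side of the histone division the KO value was the higher one, by 0.43 for KO 1 against vector control 2 and 3 and by 0.95 for KO 2 and 3 against vector control 1. RefSeq gives AREGB as another name of this gene. Builds as old as hg19 carry a second, near-identical copy under that name, so the AREG value depends on how shared reads were assigned.

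EREG, the most abundant ligand in the vector controls, stood at 10.90, 11.00 and 9.49 FPKM there, against 8.20, 8.28 and 7.70 in the KO libraries. The groups did not overlap, and the values within each were close together. The log2 fold change was -0.34 (SE 0.14, 95% interval -0.67 to -0.01, limma adjusted p = 0.274), 1.30-fold between the means. Within the histone division it was -0.29 and -0.41.

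BTC, which is outside the 10 genes, stood at 4.60, 2.85 and 2.02 FPKM across the vector controls, against 5.35, 8.33 and 8.71 in the KO libraries. All KO values were above all vector control values. The log2 fold change was 1.05 (SE 0.28, 95% interval 0.40 to 1.70), the 86th highest of the 9624, and its limma adjusted p of 0.143 missed the threshold. Without vector control 1 it was called (1.29, adjusted p = 0.0268), in a fit that called 1329 of the 9624 genes. Within the histone division it was 0.90 and 0.77. EPGN, the ligand gene before EREG in the same order, reached at most 0.33 FPKM. Of the tested rows next outside these ligand genes, MTHFD2L stood at -0.10 (adjusted p = 0.806) and PARM1 at 0.16 (adjusted p = 0.784).

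The neuregulins, which bind ERBB3 and ERBB4, were at or near 0. NRG1 was listed at 0.01 FPKM in KO 1 and at 0 in the other 5 libraries. NRG3 was listed at 0 in all 6, NRG2 reached at most 0.26 and NRG4 at most 0.50. EGF itself reached at most 0.04. A listed 0 can be an unmeasured value in this table, since the 13 rows of mitochondrially encoded genes were also at 0 throughout.

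**Figure D2:**
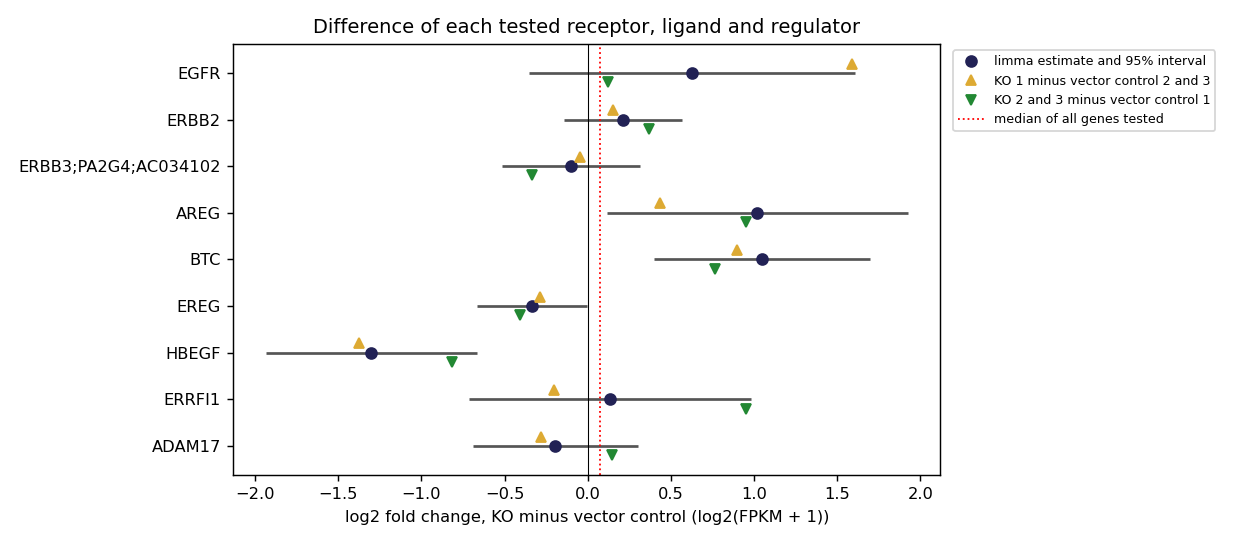
Log2 fold change, KO minus vector control, on the log2(FPKM + 1) scale for the 8 tested members and BTC, with the 95% interval from limma as a line. Triangles give the difference within each side of the histone division, and the dotted line the median of all genes tested (0.08). For each gene but ERRFI1 and ADAM17 both triangles lie on the same side of 0 as the estimate.

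The KO libraries held less HBEGF and more BTC among their ligand transcripts. Over the 7 ligands AREG, EREG, HBEGF, TGFA, BTC, EGF and EPGN, the sum was 25.7, 23.5 and 21.1 FPKM in the vector controls and 20.3, 32.4 and 31.0 in the KO libraries, so the groups overlapped. HBEGF made up 9.30%, 21.5% and 26.1% of this sum in the vector controls and 6.94%, 2.53% and 3.32% in the KO libraries. BTC made up 17.9%, 12.1% and 9.59%, and then 26.3%, 25.7% and 28.1%. EREG was the leading ligand in all vector controls, at 42.4% to 46.9%, and in KO 1 at 40.3%. In KO 2 and KO 3 AREG led, at 45.6% and 42.3%, with EREG at 25.5% and 24.8%. AREG made up 26.1% in both vector control 1 and KO 1. Shares of 1 sum depend on each other, and no test was made of them.

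**Figure D3:**
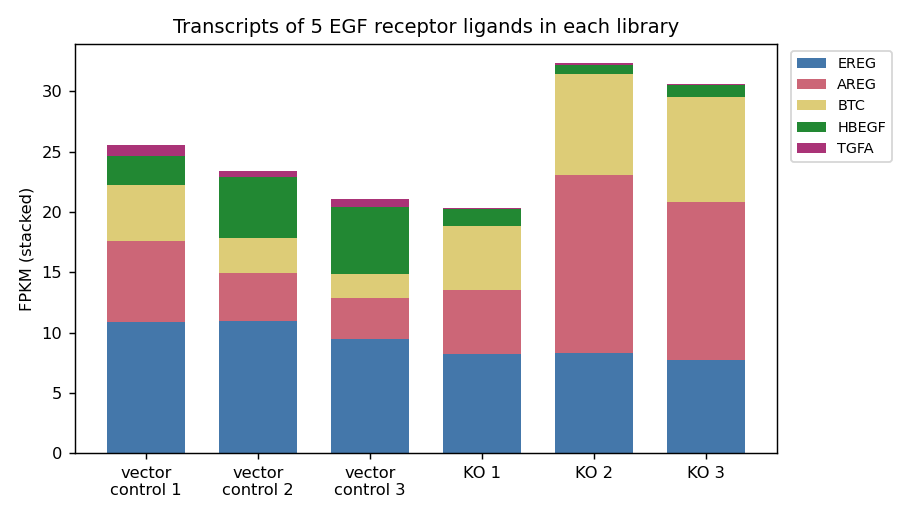
Stacked FPKM of EREG, AREG, BTC, HBEGF and TGFA in each of the 6 libraries (1 bar per library, axis from 0). The HBEGF part is smaller in every KO bar, the BTC part larger, and the AREG part largest in KO 2 and KO 3 (14.79 and 13.11 FPKM).

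ERRFI1 encodes MIG6, which binds the kinase domain of the active receptors and inhibits it, and is itself induced by their signalling. It had the highest level of the family by far, and its lowest library was above the highest of EGFR. ERRFI1 stood at 35.63, 76.40 and 103.74 FPKM across the vector controls, against 77.21, 72.04 and 67.65 in the KO libraries. The KO libraries lay close together within the wide range of the vector controls. Its log2 fold change was 0.13 (SE 0.36, 95% interval -0.71 to 0.98, limma adjusted p = 0.880). Without vector control 1 it turned to -0.30 (adjusted p = 0.257). Within the histone division it was -0.20 and 0.95, in opposite directions.

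ADAM17, the main sheddase of AREG, EREG, HBEGF and TGFA, stood at 5.65, 9.61 and 8.50 FPKM across the vector controls. It stood at 7.27, 6.92 and 5.84 in the KO libraries, all within the range of the vector controls. ADAM17 had a log2 fold change of -0.19 (95% interval -0.69 to 0.30, limma adjusted p = 0.679), and with 1 library left out it ran from -0.39 (without vector control 1, adjusted p = 0.118) to -0.0548 (without vector control 2, adjusted p = 0.948). With the histone division as a term it was -0.0667.

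Ordered by the mean level per length over the 6 libraries, ERRFI1 at 72.1 FPKM came first. It was followed by EGFR (9.63), EREG (9.26), ERBB2 (7.96), AREG (7.88), the joined row of ERBB3 (7.87), ADAM17 (7.30), BTC (5.31), HBEGF (2.70) and TGFA (0.398). Only the range of ERRFI1 over the 6 libraries was apart from that of the next gene. HBEGF was above TGFA in all 6 libraries, although their ranges touched across the groups. From EGFR down to HBEGF, the ranges of neighbours overlapped and no gene was above the next in all 6 libraries, so the order between those neighbours does not exceed their spread.

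Gene profiles most like those of EGFR and HBEGF were taken as the 3 tested genes with the smallest root mean square difference from each, on centred log2(FPKM + 1) values over the 6 libraries. For EGFR they were SLC2A12 (0.200), ZFP90 (0.219) and STUB1 (0.227), whose highest values were all in KO 1, at 7.49, 7.80 and 12.03 FPKM. For HBEGF they included GADD45A (0.0788) and HSP90B1 (0.112). GADD45A, a stress response gene, stood at 6.29, 10.92 and 12.00 FPKM across the vector controls, against 3.40, 2.72 and 2.79 in the KO libraries. As in HBEGF, vector control 1 lay between the other vector controls and the KO libraries. These are the nearest of 9624 genes over 6 libraries and carry no test.

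The genes around the receptors were taken from 4 lists. Of 12 genes of shedding and ligand processing, 7 were tested and limma called 0, with 3 at an unadjusted p below 0.05 (17.5% of all genes, the share for each list here) and a median log2 fold change of -0.01. ADAM10, the main sheddase of EGF and BTC, stood at 20.04, 19.62 and 18.89 FPKM across the vector controls, against 14.65, 10.16 and 11.30 in the KO libraries. Its groups did not overlap, and its log2 fold change was -0.67 (adjusted p = 0.131). FRMD8, whose product holds ADAM17 and its iRhom partners at the cell surface, stood at 3.10, 2.94 and 3.67 and at 6.44, 5.49 and 4.57 FPKM (0.61, adjusted p = 0.157). The 2 genes thus differed in opposite directions, neither past the threshold.

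Of 22 adaptor and effector genes, 19 were tested and 0 called, with 2 at an unadjusted p below 0.05 and a median of -0.01. The joined row PIK3R3;AL358075;P3R3URF, which holds the gene of a regulatory subunit of PI3 kinase, stood at 12.17, 4.13 and 3.56 FPKM across the vector controls. It stood at 19.79, 19.24 and 18.77 in the KO libraries, above every vector control (log2 fold change 1.58, adjusted p = 0.120). SRC, a kinase recruited to active receptors, stood at 5.51, 5.25 and 6.09 and at 3.95, 1.88 and 4.21 FPKM (-0.65, adjusted p = 0.242). Of 25 genes of receptor turnover and inhibition, 21 were tested and 0 called, with 4 at an unadjusted p below 0.05 and a median of 0.02. Within it, SPRY2, a feedback inhibitor of the pathway, stood at 18.95, 13.45 and 13.90 FPKM across the vector controls, against 20.66, 22.87 and 24.32 in the KO libraries, with a log2 fold change of 0.54 (adjusted p = 0.202). The receptor phosphatase gene PTPRJ stood at 4.61, 8.65 and 8.61 and at 5.35, 2.78 and 3.45 FPKM, and its groups overlapped (-0.76, adjusted p = 0.242).

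ERK-responsive and feedback genes, which lie at the far end of the pathway, had lower values more often than not. Of 20 such genes, 17 were tested, 2 fell and 0 rose, or 11.8% called against 1.35% of all genes. The median log2 fold change was -0.51. Of the 17, 4 were above 0 and 13 below, against 3921 of 9624 genes tested below 0. At an unadjusted p below 0.05 there were 10 of the 17, all lower, where 577 of the 9624 genes tested, or 6%, were lower and 11.5% higher. IER3, an early response gene, fell from 40.74, 36.21 and 43.51 to 10.70, 14.68 and 15.20 FPKM (-1.51, SE 0.18, limma adjusted p = 0.0130). ETV4, an ETS factor gene induced by ERK, fell from 2.99, 3.78 and 4.22 to 1.48, 1.37 and 0.98 FPKM (-1.03, SE 0.17, limma adjusted p = 0.0396). Within the histone division IER3 was at -1.80 and -1.39, and ETV4 at -1.01 and -0.88. The ERK phosphatase gene DUSP7 stood at 10.21, 15.64 and 15.89 and at 8.07, 8.41 and 7.51 FPKM (-0.71, adjusted p = 0.157). ETV1 stood at 1.67, 1.31 and 1.54 and at 0.57, 0.68 and 1.02 FPKM (-0.52, adjusted p = 0.162). Neither overlapped between the groups. SPRY2, a feedback inhibitor placed in the turnover list, was higher in every KO library (0.54, limma adjusted p = 0.202). ERRFI1, induced by receptor signalling and also outside this list, stood at 0.13 (limma adjusted p = 0.880). Neither of these 2 genes was lower, so the share of lower genes in the ERK-responsive list depends on which genes were placed in it. The list was chosen with earlier results of these data known, IER3 and ETV4 among them, so its direction is not independent evidence. The count of 2 was 0 without vector control 3, without KO 2 or without KO 3. It was 1 without vector control 2 or without KO 1. Without vector control 1 it was 5, in a fit that called 1329 of the 9624 genes. Without a filter, 1 of the 20 fell and 1 rose.

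**Figure D4:**
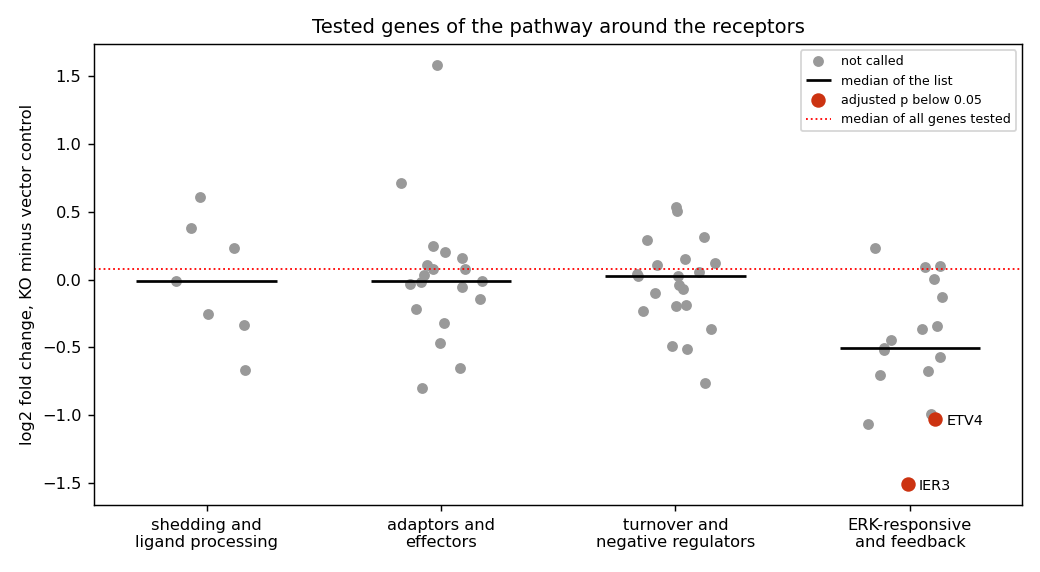
Log2 fold change, KO minus vector control, of each tested gene in 4 lists, with sideways jitter for legibility. Black lines are list medians and the dotted line the median of all genes tested. The first 3 lists have medians from -0.01 to 0.02, and the ERK-responsive genes -0.51, with IER3 and ETV4 past the threshold.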

How the data were processed

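Total RNA was sequenced in 6 samples, 3 vector control and 3 LINC00901 knockout, grouped by title. The authors deposited 1 table of FPKM, per the file headers. The submitters' processing notes name build hg19 and the tools cutadapt, FastQC and HISAT2. Versions, the FPKM tool, annotation and strand use: not given in the sources used here. Of 18268 rows, 990 join several symbols and were kept as 1 unit. Depth is unknown.

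log2(FPKM + 1) was fitted with limma 3.58.1 (lmFit, eBayes with trend; R 4.3.3) over all 9624 rows with at least 1 FPKM in at least 3 libraries, two-sided, without covariates, with Benjamini-Hochberg adjustment. The fitting code was run on simulated data with the same spread for all genes and no histone division. That run checks the code, not the error rate in these libraries. Named are the 10 members, the 7 other receptor and ligand genes, called genes of the pathway lists, the 2 uncalled ones with the lowest p in each, and profile neighbours of EGFR and of the member with the lowest p. Markers, and MTHFD2L and PARM1 by position, were named outside this rule. A gene that this rule names is not reported here. Members and lists were chosen with earlier results of these data known. Alternatives were other pseudocounts, filters, scalings, variance models and thresholds, a replicate block, a histone division term and each library left out. Sequences are from RefSeq (GRCh38.p14).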

Additional observations from a re-analysis of the deposited data

How the results depend on the processing

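The direction and the side of the threshold of EGFR and ERBB2 held under each alternative run. With array weights and robust eBayes, where calls over all genes were 4020, AREG (1.52), EREG (-0.34), HBEGF (-1.63), ADAM17 (-0.44) and BTC (1.39) passed, and ERRFI1 (-0.28) and the joined row of ERBB3 (0.0774) turned sign without passing. HBEGF also passed with the histone division term (-1.10). TGFA passed without a filter (-0.65). It also passed with the filter at 0.5 FPKM (-0.65), chosen after seeing the data, which it met only through the vector controls. HBEGF gave no value with a filter at 5 FPKM, nor TGFA with any filter of 1 FPKM or more.

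Calls over all genes were 241 without a filter, 59 with a filter at 5 FPKM and 240 with the division term. They were 274 at an adjusted p below 0.1 and 31 below 0.01. With 1 library left out they ran from 25 without KO 3 to 1329 without vector control 1. Quantile normalization divided the 130 calls into 31 higher and 99 lower, against 49 and 81, and median scaling gave 29 and 81. Array weights gave 1 call among the other receptors and ligands, 3 among shedding, 7 among adaptor, 6 among turnover and 11 among ERK-responsive genes. Without a filter 1 ERK-responsive gene was higher and 1 lower. The ERK-responsive count was 1 with a filter at 5 FPKM and 0 at an adjusted p below 0.01. With 1 library left out the counts ran from 0 to 1, 0 to 1, 0 to 2, 0 to 2 and 0 to 5 in these lists. In the same fits EGFR ran from 0.16 to 0.86, ADAM17 from -0.39 to -0.0548, AREG from 0.77 to 1.43, HBEGF from -1.60 to -1.13, BTC from 0.84 to 1.29, ERRFI1 from -0.30 to 0.46 and the joined row of ERBB3 from -0.21 to 0.0377. The cause of these changes was not tested. The replicate block gave 7 calls over all genes and 0 among ERK-responsive genes. Deviations of same-numbered libraries correlated across genes at r = -0.374, -0.153 and -0.264. Pairs on the same side of the histone division correlated at 0.183 to 0.324, and all other pairs were negative. These values follow the division, so they cannot tell whether same-numbered libraries were prepared together.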
